A study of Mus musculus with 27 samples.

Results

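The genes described here encode the AP-1 and EGR transcription factors of the immediate-early response: Fos, Fosb, Fosl1 and Fosl2 (the Fos family), Jun, Junb and Jund (the Jun family), and Egr1, Egr2 and Egr3 (the EGR family). They were chosen by symbol, and all 10 were found among the 55483 genes of the count table. They were measured in RAW264.7 cells, an established line of mouse macrophages, treated for 6 h. The groups are DMSO (the solvent), LPS (bacterial lipopolysaccharide, an activator of macrophages, at 1 µg/ml, given with DMSO) and LPS+TM7nox, in which cells had LPS and TM7nox at 10 µM, and no group had TM7nox without LPS. TM7nox is a tanshinone mimic, a compound designed against the interaction of HuR with its target RNAs. HuR, the product of Elavl1, is an RNA-binding protein that recognises AU-rich elements. Each treatment had 4 libraries of total RNA and 4 from immunoprecipitation of HuR (RNA immunoprecipitation, RIP), and 1 from precipitation by control IgG, always with replicate number 3.

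AP-1 is a dimer of basic leucine zipper proteins. Fos proteins need a Jun partner to bind DNA, while Jun proteins can also pair with each other, and the makeup of the dimer sets which genes it acts on and how strongly. EGR proteins bind GC-rich sites through zinc fingers. Most genes of both groups can be switched on by serum, growth factors and Toll-like receptor signals without new protein synthesis, and many of their mRNAs decay quickly through AU-rich elements in the 3′ UTR, whose core is the pentamer ATTTA in DNA letters. In macrophages, AP-1 acts beside NF-kB at inflammatory genes, and Egr2 and Egr3 are also known for restraining activation in lymphocytes.

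The table gives reads per gene, and levels are written here as CPM, reads per 1 M counts on a common scale over the 27 libraries (trimmed mean of M-values, TMM). Depth ran from 2.73 M counts (RNA DMSO replicate 1) to 28.3 M in RNA libraries, from 19.8 to 41.4 M in RIP libraries and from 8.87 to 24.5 M in IgG libraries. All 7 macrophage markers examined were present in every RNA library, and their summed level lay between 4240 and 5693 CPM (DMSO), 3093 and 4758 CPM (LPS) and 2269 and 4616 CPM (LPS+TM7nox). Most of this sum is Lyz2. Of the 7 markers, 4 were called higher and 1 lower with LPS, beside 20.2% and 21.7% of all genes tested. With TM7nox relative to LPS 2 were called lower, beside 6.4% of all genes tested. The 3 markers of each of T cells, B cells, fibroblasts and epithelial cells summed to at most 0.385 CPM per type and RNA library. Epcam and Krt8 were at 0 in all RNA libraries. Mitochondrially encoded genes took 12.1 to 22.4% of the counts in RNA libraries, 0.559 to 1.86% in RIP libraries and 5.31 to 6.13% in IgG libraries. Libraries numbered 1 and 2 stood apart from those numbered 3 and 4. In the DMSO RNA libraries replicates 1 and 2 both lay above replicates 3 and 4 for 7 of the 10 genes (Fos, Fosb, Fosl2, Junb and the 3 EGR genes) and below them for Jun. In LPS they lay above for 2 genes and below for 6, and in LPS+TM7nox above for 3 and below for 5, so that Fosb, Fosl2 and Egr3 turned from above in DMSO to below in LPS. The labels do not say what a number marks, so values from replicates 1 and 2 alone or 3 and 4 alone are given where they change a call or move a value by over 1.5 times. Nothing in the labels says that replicates came from separate cultures, so p-values measure the spread between these libraries, which may be technical. In bulk samples, a lower level per cell and fewer cells expressing a gene cannot be told apart.

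The 3′ UTR stretches with the most ATTTA pentamers show how the members differ in the element by which such mRNAs are commonly regulated and which HuR is known to bind. Each line gives the best 30-base window of the Ensembl canonical transcript (GENCODE M39, GRCm39, sense strand), with ATTTA in capitals. Shown are the genes with 2 pentamers in a window, then Jund, which was enriched in RIP over RNA, and Junb, which was depleted.
Fos: cgtttttattgtgttttcaATTTATTTAtt
Fosl2: cATTTAttttattATTTAttttaaatgttt
Jun: ATTTAtaatcataggaaagATTTAgtaatt
Jund: agtgtccgattccgccctATTTAtgtttct
Junb: gtgtgtttgactttttattgaatctATTTA
Over the whole 3′ UTR, Fosl2 held 8 ATTTA pentamers in 4653 bases, Egr3 held 7 in 2645, Fos 4 in 815, Jun 4 in 1233 and Egr2 3 in 1200. Egr1 held 2 in 1228 bases, Junb 2 in 485, and Fosb, Fosl1 and Jund held 1 each, in 2145, 638 and 533 bases. All 10 members thus had at least 1, which was also true of 68.7% of the 20399 coding 3′ UTRs of at least 50 bases. Only Fos, Fosl2 and Jun among the members had 2 within 30 bases, as did 20.4% of all those UTRs. Per length, Fos was densest with 4.91 pentamers per kb and Fosb sparsest with 0.466, beside a median of 1.32 over all UTRs.

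Per kilobase of exonic sequence, Junb had the highest total RNA level of the 10 genes in every treatment, at 32.0 ± 13.0 CPM per kb under DMSO, 129.5 ± 14.7 under LPS and 87.3 ± 12.5 with TM7nox added (SD, n = 4). In DMSO it was followed by Fos (15.6 ± 6.40), Jun (11.002 ± 3.26) and Egr1 (10.7 ± 4.43), whose libraries overlapped one another. Jund (5.24 ± 2.17), Fosl2 (2.38 ± 0.795), Egr3 (2.33 ± 1.01) and Egr2 (1.61 ± 1.44) came next, each overlapping its neighbour in this order. Fosl1 (0.694 ± 0.654 CPM per kb) and Fosb (0.142 ± 0.180) were lowest, and their libraries overlapped too. In LPS the order below Junb was Egr1 (15.2 ± 1.70), Jund (14.7 ± 6.50), Fos (13.1 ± 4.50), Jun (11.6 ± 2.97) and Fosl2 (9.30 ± 1.60), again with overlapping neighbours. Fosl1 (5.72 ± 0.499) then lay above Egr2 (0.452 ± 0.236) and Egr3 (0.329 ± 0.102) in every LPS library. In LPS+TM7nox, Jun moved to the place after Junb at 20.8 ± 1.96 CPM per kb, above every library of Jund (12.8 ± 3.64) and Fosl1 (9.30 ± 1.40). Egr1 (6.82 ± 0.833), Fos (5.44 ± 2.20) and Fosl2 (3.88 ± 0.406) followed, each overlapping its neighbour, and Egr2 (0.430 ± 0.200), Egr3 (0.106 ± 0.0762) and Fosb (0.0603 ± 0.0421) were lowest.

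**Figure D1:**
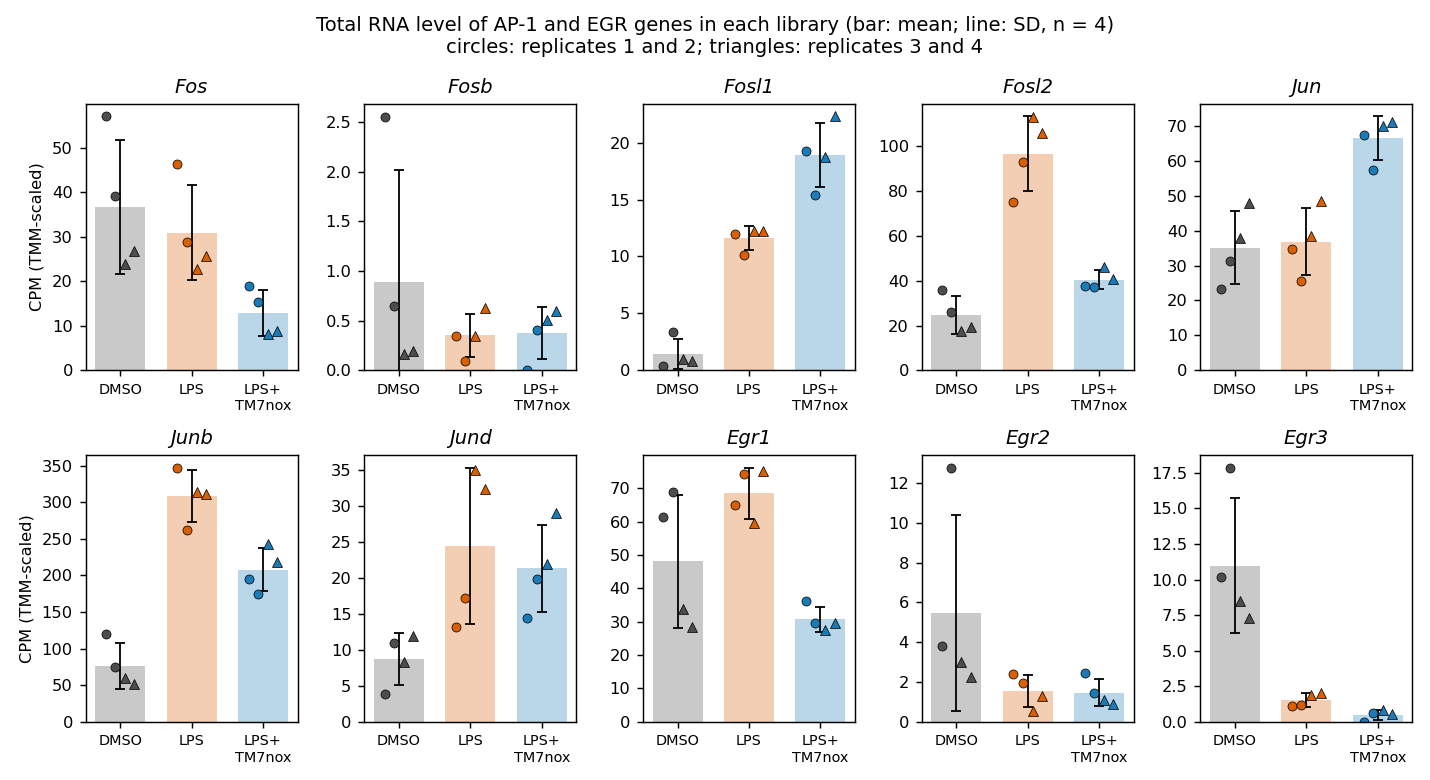
Total RNA level of each gene in CPM (vertical axis, own scale per panel) in the 4 libraries of each treatment; bars are means and lines are SD (n = 4), circles are replicates 1 and 2 and triangles replicates 3 and 4. Fosl2 and Junb were highest in LPS, Fosl1 and Jun in LPS+TM7nox, and Egr2 and Egr3 in DMSO.

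With LPS, 6 of the 10 genes changed in total RNA: Fosl1, Fosl2, Junb and Jund rose, and Egr2 and Egr3 fell. Fos, Fosb, Jun and Egr1 did not pass the test. A gene is called changed at an adjusted p (FDR) under 0.05 in edgeR's quasi-likelihood test with Benjamini-Hochberg adjustment over all genes tested. Of the 12369 genes tested, 42% were called in this comparison, 20.2% as higher and 21.7% as lower, so the count of 4 higher and 2 lower among 10 is not far from the background. Groups did not overlap for 5 members and for 38.7% of genes. The median log2 fold change was 0.26 over the members and -0.04 over all genes tested.

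TM7nox added to LPS changed 4 of the 10 genes relative to LPS: Jun rose, and Fos, Fosl2 and Egr1 fell. Here 13.8% of the genes tested were called, 7.37% higher and 6.4% lower. The median log2 fold change was -0.38 over the members and 0.00 over all genes. Relative to DMSO, LPS+TM7nox changed 9 of 10, with Fosl1, Fosl2, Jun, Junb and Jund higher and Fos and the 3 EGR genes lower, beside 47.3% of all genes (23.7% higher and 23.6% lower). Groups did not overlap for 7 members, beside 41.9% of genes. These comparisons share libraries: the LPS group enters the first 2 and the DMSO group the first and the third.

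Among the Fos genes, Fos itself encodes the founding member, a short-lived activator when paired with Jun. Its total RNA level was 57.0, 39.2, 23.9 and 26.7 CPM in DMSO replicates 1 to 4, 46.4, 28.7, 22.8 and 25.7 CPM in LPS and 18.9, 15.4, 8.10 and 8.92 CPM in LPS+TM7nox. The DMSO and LPS libraries overlapped throughout, while every LPS+TM7nox library lay below every library of the other groups, and replicates 1 and 2 were the higher ones in each treatment. The change with LPS was not called (log2 -0.26, SE 0.335, FDR 0.572). Fos fell 2.42-fold with TM7nox relative to LPS (log2 -1.27, SE 0.340, FDR 0.0229) and 2.90-fold relative to DMSO (log2 -1.54, SE 0.345, FDR 0.00215). The call against LPS was lost without LPS replicate 1 (FDR 0.0718), LPS+TM7nox replicate 3 (FDR 0.0709) or LPS+TM7nox replicate 4 (FDR 0.0724), and with replicates 1 and 2 alone (FDR 0.133).

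Fosl1 encodes Fra-1, which lacks the strong activation domain of Fos and is itself a known AP-1 target. It was low in DMSO, at 0.424, 3.37, 0.997 and 0.854 CPM (2, 131, 31 and 26 reads). It stood at 11.9, 10.1, 12.3 and 12.2 CPM in LPS and at 19.2, 15.4, 18.7 and 22.3 CPM in LPS+TM7nox, so that the 3 groups did not overlap. It rose 7.09-fold with LPS (log2 2.83, SE 0.377, FDR 3.58e-05) and stood 11.6-fold above DMSO in LPS+TM7nox (log2 3.53, SE 0.383, FDR 4.27e-06). Without DMSO replicate 2, the highest of its group, these log2 values were 3.72 and 4.42. Replicates 3 and 4 alone also gave 3.72 with LPS. For LPS+TM7nox against DMSO, replicates 1 and 2 alone gave 2.92, and replicates 3 and 4 gave 4.49. The further difference between LPS+TM7nox and LPS (log2 0.70, SE 0.328, FDR 0.19) was not called, although all 4 libraries lay above all 4 of LPS, as was the case in either direction for 21.8% of genes. It was called without DMSO replicate 2 (FDR 0.012), with only those 2 groups in the fit (FDR 0.00658), without the filter on low counts (FDR 0.017) and in replicates 3 and 4 alone (FDR 0.00143).

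Fosl2, which encodes Fra-2, rose with LPS and was lower with TM7nox. Its level was 35.8, 25.996, 17.5 and 19.5 CPM in DMSO, 75.2, 92.8, 112.9 and 106.0 CPM in LPS and 37.5, 37.1, 46.2 and 40.6 CPM in LPS+TM7nox. No library of a group overlapped another group, and the LPS libraries were the high ones. The rise with LPS was 3.88-fold (log2 1.96, SE 0.212, FDR 5.18e-06, and log2 2.57 in replicates 3 and 4 alone), and the level in LPS+TM7nox was 2.39-fold lower than in LPS (log2 -1.26, SE 0.205, FDR 0.00104). It stayed 1.63-fold above DMSO (log2 0.70, SE 0.208, FDR 0.0126). In replicates 1 and 2 alone, the differences of LPS+TM7nox from LPS (FDR 0.058) and from DMSO (FDR 0.498) were not called.

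Fosb, whose protein is best known from neurons, was barely detected. The RNA libraries held 12, 25, 5 and 6 reads of it in DMSO, 8, 3, 10 and 20 in LPS and 0, 11, 16 and 14 in LPS+TM7nox. Group means were 0.886 ± 1.13, 0.351 ± 0.215 and 0.376 ± 0.263 CPM (SD, n = 4), and all groups overlapped. Where no read was counted, the depth allows a level of up to 0.146 CPM (3 reads). No comparison of treatments called it in total RNA (log2 -0.94, SE 0.959 with LPS), and its value against DMSO reversed to a log2 rise of 1.43 (FDR 0.049) with LPS and of 1.62 (FDR 0.0273) with LPS+TM7nox in replicates 3 and 4.

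The makeup of the Fos family moved with both treatments, as shares of the family's summed level per kilobase show. Fos made up a median of 82.6% in DMSO (79.6 to 85.6 over the 4 libraries), 43.4% in LPS (36.4 to 59.9) and 28.5% in LPS+TM7nox (20.0 to 38.0). Fosl1 went from 3.53% (0.738 to 7.94) to 20.6% (17.9 to 22.6) and 49.3% (42.7 to 58.5), which made it the leading member in each LPS+TM7nox library. Fosl2 was at 12.9% in DMSO, 35.9% in LPS and 20.5% in LPS+TM7nox, and Fosb under 1.5% in every library. Shares depend on the gene length used: with canonical transcript lengths Fosl2 (median 42.9%) exceeded Fos (38.8%) in LPS, while Fos still led in DMSO (78.9%) and Fosl1 in LPS+TM7nox (45.3%). These shares are descriptions and carry no test.

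**Figure D2:**
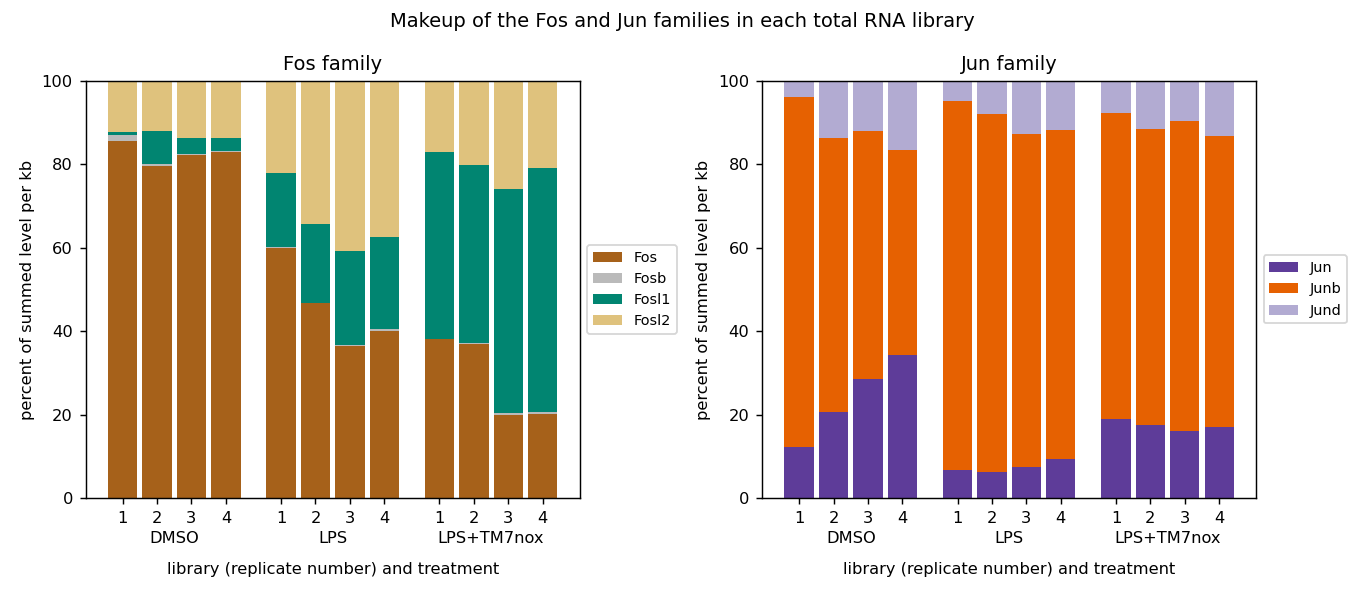
Share of each gene in the summed level per kilobase of exonic sequence of its family (vertical axis, percent) in each of the 12 total RNA libraries (horizontal axis, replicate number and treatment). Fos fills most of each DMSO bar, Fosl1 is the widest Fos family segment in each LPS+TM7nox library, and Junb takes the largest part of the Jun family in every library.

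In the Jun family, Junb, a partner that often counters Jun, rose with LPS. Its level was 120.4, 74.5, 59.1 and 51.1 CPM in DMSO, 346.9, 262.1, 314.1 and 310.5 CPM in LPS and 195.2, 174.4, 243.4 and 218.1 CPM in LPS+TM7nox, without overlap between groups. It rose 3.96-fold with LPS (log2 1.98, SE 0.240, FDR 1.5e-05) and was 2.67-fold above DMSO in LPS+TM7nox (log2 1.42, SE 0.236, FDR 0.000206). The lower level with TM7nox than with LPS (log2 -0.57, SE 0.231, FDR 0.13) was not called, although it was called when only those 2 groups were fitted (FDR 0.0167), without the filter (FDR 0.00919), without DMSO replicate 1 (FDR 0.0152) and in replicates 3 and 4 (FDR 0.0128). Replicates 1 and 2 alone did not call the difference of LPS+TM7nox from DMSO (log2 0.92, FDR 0.0614), which was larger in replicates 3 and 4 (log2 2.10).

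Jun encodes c-Jun, the strongest activator of the family. Its level did not differ detectably with LPS, at 23.3, 31.2, 38.0 and 47.8 CPM in DMSO and 34.7, 25.6, 38.6 and 48.5 CPM in LPS (log2 0.03, SE 0.202, FDR 0.921). With TM7nox it was 67.3, 57.4, 70.0 and 71.1 CPM, above every library of both other groups. Jun rose 1.81-fold relative to LPS (log2 0.85, SE 0.202, FDR 0.0117) and 1.85-fold relative to DMSO (log2 0.88, SE 0.203, FDR 0.0025). Replicates 1 and 2 alone did not call the first of these (log2 1.04, FDR 0.0787). Jun was thus the only member that rose with TM7nox relative to LPS by this test, beside Fosl1 under the settings given above.

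Jund, commonly described as the steady member of the family, was at 3.82, 10.9, 8.33 and 11.96 CPM in DMSO, 13.2, 17.2, 35.0 and 32.3 CPM in LPS and 14.4, 19.7, 22.0 and 29.0 CPM in LPS+TM7nox. Every LPS and LPS+TM7nox library lay above every DMSO library, and the 2 LPS-treated groups overlapped. It rose 2.63-fold with LPS (log2 1.39, SE 0.335, FDR 0.00391) and 2.30-fold with LPS+TM7nox relative to DMSO (log2 1.20, SE 0.334, FDR 0.0088). In replicates 1 and 2 alone neither rise was called (FDR 0.171 and 0.0935). LPS+TM7nox and LPS were not told apart (log2 -0.19, SE 0.322, FDR 0.771). Of the Jun family's level per kilobase, Junb took a median of 62.6% in DMSO, 82.8% in LPS and 72.2% in LPS+TM7nox, and Jun took 24.5%, 6.97% and 17.2%.

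Of the EGR genes, Egr2 and Egr3 fell with LPS and Egr1 fell with TM7nox relative to LPS. Egr1 stood at 61.3, 68.7, 33.8 and 28.5 CPM in DMSO, 64.9, 74.4, 59.4 and 75.3 CPM in LPS and 36.0, 29.7, 27.4 and 29.6 CPM in LPS+TM7nox. DMSO replicates 1 and 2 lay among the LPS libraries and replicates 3 and 4 near those of LPS+TM7nox, while the LPS libraries all lay above the LPS+TM7nox libraries. The change with LPS was not called (log2 0.48, SE 0.238, FDR 0.121), but it was with replicate number as a block (log2 0.56, FDR 0.0274), without the filter on low counts (FDR 0.00835), without DMSO replicate 1 (FDR 0.046) or 2 (FDR 0.0312), and in replicates 3 and 4 alone (log2 1.12, FDR 3.37e-05). Egr1 fell 2.23-fold with TM7nox relative to LPS (log2 -1.16, SE 0.240, FDR 0.00527). Its lower level in LPS+TM7nox than in DMSO (log2 -0.67, SE 0.240, FDR 0.0322) depended on replicate number: replicates 3 and 4 gave -0.10 (FDR 0.52), and the call was also lost without DMSO replicate 1 (FDR 0.0919) or 2 (FDR 0.13) and without LPS+TM7nox replicate 2 (FDR 0.0667), 3 (FDR 0.0808) or 4 (FDR 0.0706). With only those 2 groups in the fit the call was lost too (FDR 0.0694).

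Egr3 had the lowest log2 fold change with LPS of the members. It was at 10.2, 17.9, 8.49 and 7.33 CPM in DMSO, 1.11, 1.16, 1.89 and 2.03 CPM in LPS and 0, 0.587, 0.854 and 0.552 CPM in LPS+TM7nox (0, 16, 27 and 13 reads). The groups did not overlap. The fall with LPS was 7.21-fold (log2 -2.85, SE 0.487, FDR 0.000298), and the level in LPS+TM7nox was 21.4-fold below DMSO (log2 -4.42, SE 0.543, FDR 1.35e-05). These log2 values were -3.61 and -5.45 in replicates 1 and 2 alone, and -2.01 and -3.42 in replicates 3 and 4. The difference between LPS+TM7nox and LPS was not called (log2 -1.57, SE 0.532, FDR 0.068), but was called with the replicate block (log2 -1.62, FDR 0.0372), by DESeq2 (FDR 0.00726), without the filter (FDR 0.000161) and in replicates 3 and 4 (FDR 0.00425).

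Egr2, which takes part in myeloid differentiation, was at 3.82, 12.8, 3.02 and 2.27 CPM in DMSO, 2.39, 1.93, 0.549 and 1.28 CPM in LPS and 2.43, 1.43, 1.11 and 0.892 CPM in LPS+TM7nox. DMSO replicate 2 stood far above the other libraries, and the groups overlapped in a single DMSO library, replicate 4. Egr2 fell 3.67-fold with LPS (log2 -1.88, SE 0.567, FDR 0.0157) and 3.87-fold with LPS+TM7nox (log2 -1.95, SE 0.572, FDR 0.0118) relative to DMSO. Both calls were lost without DMSO replicate 2, where the log2 values were -0.99 (FDR 0.135) and -1.06 (FDR 0.1), and the first was also lost in replicates 1 and 2 alone (FDR 0.0655). Replicates 3 and 4 alone, which do not hold that library, called both (log2 -1.51, FDR 0.00615 and log2 -1.36, FDR 0.0102). LPS+TM7nox and LPS did not differ detectably (log2 -0.07, SE 0.573, FDR 0.956).

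Anti-HuR RIP libraries gave a second set of libraries in which the same comparisons could be read, although a RIP level follows the RNA level as well as recovery. With LPS, 6 of 10 members were called, beside 44.7% of the 13614 genes tested (23.5% higher and 21.2% lower): Fosl1, Fosl2, Junb and Egr1 were higher and Egr2 and Egr3 lower. Junb went from 39.4, 28.5, 21.7 and 27.9 CPM in DMSO to 139.3, 127.7, 168.7 and 211.2 CPM in LPS, a 5.41-fold rise (log2 2.43, SE 0.249, FDR 1.08e-06). Egr3 went from 15.9, 36.8, 23.2 and 21.5 CPM to 2.03, 4.41, 5.28 and 5.10 CPM, a 5.94-fold fall (log2 -2.57, SE 0.341, FDR 1.77e-05). Egr2 had 23.0, 49.1, 14.8 and 15.2 CPM in DMSO and 7.17, 9.09, 6.37 and 5.97 CPM in LPS, with no overlap between the groups (log2 -1.87, SE 0.339, FDR 0.000333). The RIP call for Egr2 held when each RIP library was left out in turn.

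The other calls with LPS in RIP were Fosl1 (log2 2.45, SE 0.407, FDR 0.000156), Fosl2 (log2 1.42, SE 0.255, FDR 0.000314) and Egr1 (log2 0.84, SE 0.256, FDR 0.0143). Replicates 1 and 2 alone gave 1.76 for Fosl1, and replicates 3 and 4 gave 3.79. The call for Egr1 was lost without RIP DMSO replicate 3 (FDR 0.0654) or 4 (FDR 0.0595), without RIP LPS replicate 2 (FDR 0.0605) and in replicates 1 and 2 alone (FDR 0.235). Jund varied widely between replicates, with replicate 1 lowest and replicate 4 highest in each treatment: it was at 38.5, 54.4, 73.6 and 159.3 CPM in DMSO, 69.3, 122.2, 232.7 and 299.3 CPM in LPS and 70.0452, 169.0, 140.3 and 416.9 CPM in LPS+TM7nox. Its differences from DMSO were not called (log2 1.12, FDR 0.0985 with LPS, and log2 1.23, FDR 0.0682 with LPS+TM7nox) but were with the replicate block (FDR 3.87e-05 and 3.02e-05). Both were also called without the filter on low counts (FDR 6.28e-06 and 8.29e-07) and without RIP DMSO replicate 4 (log2 1.65, FDR 0.0243 and log2 1.78, FDR 0.0154), and the second also without RIP LPS+TM7nox replicate 1 (FDR 0.0279) and in replicates 1 and 2 alone (FDR 0.0314).

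With TM7nox relative to LPS, 4 of 10 members were called in RIP, beside 16.2% of genes (8.64% higher and 7.61% lower): Jun was higher, and Fosl2, Egr1 and Egr3 were lower. Jun was at 34.5, 23.3, 36.9 and 47.8 CPM in LPS and 71.6, 60.4, 74.1 and 87.9 CPM in LPS+TM7nox, a 2.00-fold rise (log2 1.00, SE 0.213, FDR 0.00468). Fosl2 was at 219.3, 313.3, 243.9 and 304.6 CPM in LPS and 104.1, 139.1, 103.8 and 179.4 CPM in LPS+TM7nox (log2 -1.08, SE 0.253, FDR 0.00879). Neither gene's groups overlapped, and for Fosl2 replicates 3 and 4 alone did not call the difference (FDR 0.105). Egr3, whose groups overlapped in a single pair of libraries, fell 3.13-fold (log2 -1.64, SE 0.378, FDR 0.00773, and FDR 0.14 in replicates 1 and 2 alone). Egr1 fell 1.83-fold (log2 -0.87, SE 0.256, FDR 0.0288), a call that was lost without RIP LPS replicate 2 (FDR 0.0874), without LPS+TM7nox replicate 1 (FDR 0.0781), 3 (FDR 0.0665) or 4 (FDR 0.0507), and in replicates 1 and 2 alone (FDR 0.14) or 3 and 4 alone (FDR 0.0741).

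Fos and Junb were not called in this RIP comparison but were with replicate number as a block. Fos had a log2 difference of -0.83 (FDR 0.087) that became -0.87 (FDR 0.000109) and was also called in replicates 3 and 4 alone (FDR 0.0198) and without the filter (FDR 0.00339), and Junb -0.59 (FDR 0.099) that became -0.59 (FDR 0.0238). Fos fell in every same-numbered pair of RIP libraries, from 179.6 to 104.6, 161.6 to 110.5, 109.5 to 53.0 and 90.9 to 47.1 CPM. Relative to DMSO, 6 members were called in the LPS+TM7nox RIP libraries, beside 48.1% of genes (25.1% higher and 23.1% lower): Fosl1 (log2 3.03), Junb (1.84) and Jun (0.99) were higher, and Egr3 (-4.22), Egr2 (-1.63) and Fos (-0.94, FDR 0.023) were lower. For Fosl1, replicates 1 and 2 gave 2.20 and replicates 3 and 4 gave 4.56. Junb was at 1.24 in replicates 1 and 2, and Egr2 at -1.03 in replicates 3 and 4. Groups did not overlap for 5 members, beside 43.3% of genes. The call for Fos was lost without RIP DMSO replicate 1 (FDR 0.0859) or RIP LPS+TM7nox replicate 3 (FDR 0.0808) or 4 (FDR 0.0649).

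**Figure D3:**
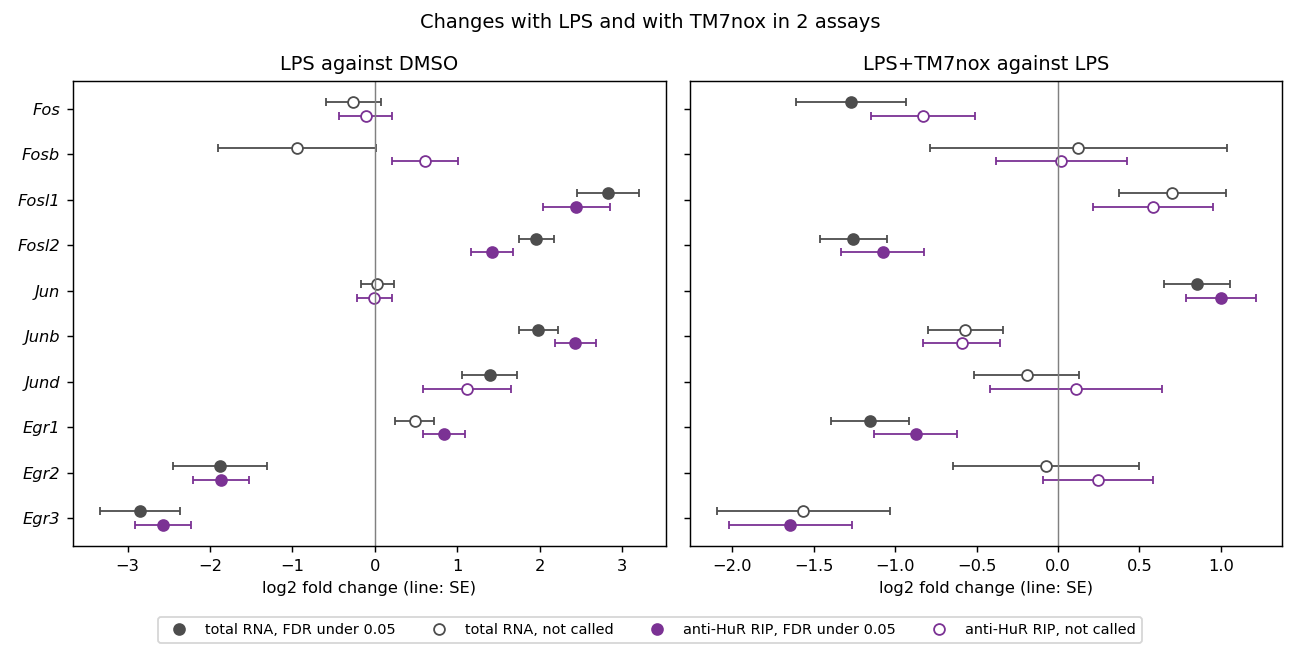
Log2 fold change of each gene (horizontal axis, lines are SE) with LPS relative to DMSO (left) and with LPS+TM7nox relative to LPS (right), in total RNA (grey) and anti-HuR RIP (purple); filled circles are called at FDR under 0.05 and open circles are not. Fosl1, Fosl2 and Junb lie to the right in the left panel and Egr2 and Egr3 to the left, and in the right panel Jun is the only filled circle above 0 in each assay.

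Recovery with anti-HuR was read as the RIP level over the RNA level within a treatment. TMM sets the typical gene near a ratio of 1, so these ratios are relative to that gene and carry no absolute scale. In DMSO 7 members were called, 6 of them enriched, beside 70.4% of the 14311 genes tested, of which 37% were enriched and 33.4% depleted. In LPS 9 were called, 7 of them enriched, beside 63.7% of genes (32.9% enriched and 30.8% depleted). In LPS+TM7nox 9 were again called, 7 of them enriched, beside 69.9% of genes (35.2% enriched and 34.8% depleted). The RIP and RNA libraries did not overlap for 5, 9 and 8 members, beside 63%, 57.5% and 62.5% of genes. The median log2 ratio of the members was 1.17, 1.45 and 1.64 in the 3 treatments, beside 0.04, -0.06 and -0.09 over all genes tested.

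In the fit Jund had the highest log2 ratio of the members in each treatment, with no test against the others, and its sequence above holds a single ATTTA. Among same-numbered libraries, Jund was not always highest. In LPS, Fosb was higher in replicates 1 and 2 (5.41 and 9.23) and Egr2 in replicate 3 (11.6). In LPS+TM7nox, Fos was higher in replicates 1 and 3 (5.54 and 6.54). The RIP over RNA ratios of Jund in same-numbered libraries were 10.1, 5.01, 8.84 and 13.3 in DMSO, 5.25, 7.11, 6.66 and 9.25 in LPS and 4.87, 8.56, 6.39 and 14.4 in LPS+TM7nox. In the fit its log2 ratios were 3.25, 2.87 and 3.19 (SE 0.542, 0.526 and 0.534). The first was 2.60 in replicates 1 and 2 alone and the third was 2.58 without RIP LPS+TM7nox replicate 4. Egr2 had log2 ratios of 2.29, 2.24 and 2.58 (SE 0.462, 0.487 and 0.496), the first of which was 3.25 without RNA DMSO replicate 2. For Fos, with paired pentamers in its window, the log2 ratios were 2.14, 2.15 and 2.62 (SE 0.333, 0.331 and 0.340). Fosl2 had 2.17, 1.48 and 1.68 (SE 0.245, 0.237 and 0.239). Egr1 (1.08, 1.30 and 1.61) and Egr3 (1.26, 1.42 and 1.34) were enriched less, and Egr3 not in replicates 1 and 2 alone (FDR 0.236, 0.117 and 0.132) nor, in LPS+TM7nox, without RNA replicate 1 (FDR 0.0717) or RIP replicate 4 (FDR 0.059).

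Jun, whose window also holds 2 pentamers, was recovered like the typical gene, with log2 ratios of 0.09, -0.05 and 0.12 (SE 0.230, 0.229 and 0.228) and no call. Junb was depleted in each treatment, with ratios of 0.327, 0.382, 0.366 and 0.546 in DMSO, 0.402, 0.487, 0.537 and 0.680 in LPS and 0.459, 0.453, 0.550 and 0.642 in LPS+TM7nox (log2 -1.22, -0.93 and -0.94, FDR 4.52e-05, 0.000956 and 0.000685). Fosl1 was at log2 -0.47 in DMSO (FDR 0.346), where RNA replicate 1 held 2 reads, and was called as depleted in LPS (-0.94, FDR 0.0343) and LPS+TM7nox (-1.04, FDR 0.0168). The call in LPS was lost with DESeq2 size factors (FDR 0.0692) and in DESeq2's own test (FDR 0.0665). It was also lost without RIP LPS replicate 2 (FDR 0.0964) or 3 (FDR 0.0696) or RNA LPS replicate 3 (FDR 0.0615) or 4 (FDR 0.0634). The call in LPS+TM7nox was lost without RIP replicate 2 (FDR 0.0544). In replicates 1 and 2 alone neither was called (FDR 0.166 and 0.0949), and in replicates 3 and 4 alone that in DMSO was (log2 -1.11, FDR 0.00605). Fosb, on its few reads, was called as enriched in LPS (2.08, FDR 0.0114) and LPS+TM7nox (1.98, FDR 0.0142), and not in DMSO (0.74, FDR 0.357), except without RNA replicate 1 (1.54, FDR 0.0425) or in replicates 3 and 4 (1.93, FDR 0.0161). Its call in LPS was lost in replicates 1 and 2 alone (FDR 0.0539), and its log2 ratio in LPS+TM7nox was 2.82 there and 1.38 in replicates 3 and 4. In the RIP libraries Jund, not Junb, therefore took the largest median share of the Jun family's level per kilobase, at 65.3% in DMSO and 58.7% in both other treatments. In LPS the share of Jund ran from 37.5 to 63.4%, overlapping that of Junb (31.3 to 52.8%). With canonical transcript lengths the LPS medians were 52.8% for Jund and 42.4% for Junb.

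None of the 10 members changed its RIP over RNA ratio by the test of the difference itself. For LPS against DMSO the log2 changes of the ratio ran from -0.68 to 1.34 with SE from 0.319 to 0.990, and the lowest FDR was 0.684 (0 called by edgeR and 0 by DESeq2, and 1 at an unadjusted p under 0.05). That gene was Fosl2, chosen here after its value was seen, whose ratios were 4.01, 3.60, 3.66 and 4.91 in DMSO and 2.92, 3.38, 2.16 and 2.87 in LPS (log2 -0.68, SE 0.331, FDR 0.684). For LPS+TM7nox against LPS they ran from -0.10 to 0.47 with SE from 0.318 to 0.966, with a lowest FDR of 0.898 and no member at an unadjusted p under 0.05 (0 called by DESeq2). Few genes of any kind were called: 0.0419% of those tested with LPS (0.014% higher and 0.028% lower) and 0.00699% with TM7nox. The same-numbered ratios did not overlap between groups for 1 member in each comparison, beside 10.2% and 7.06% of genes. These were Fosl2, lower with LPS, and Jun, higher with TM7nox. With these standard errors a change of the ratio would have gone undetected unless it was large, and the failed tests do not show that recovery was alike.

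**Figure D4:**
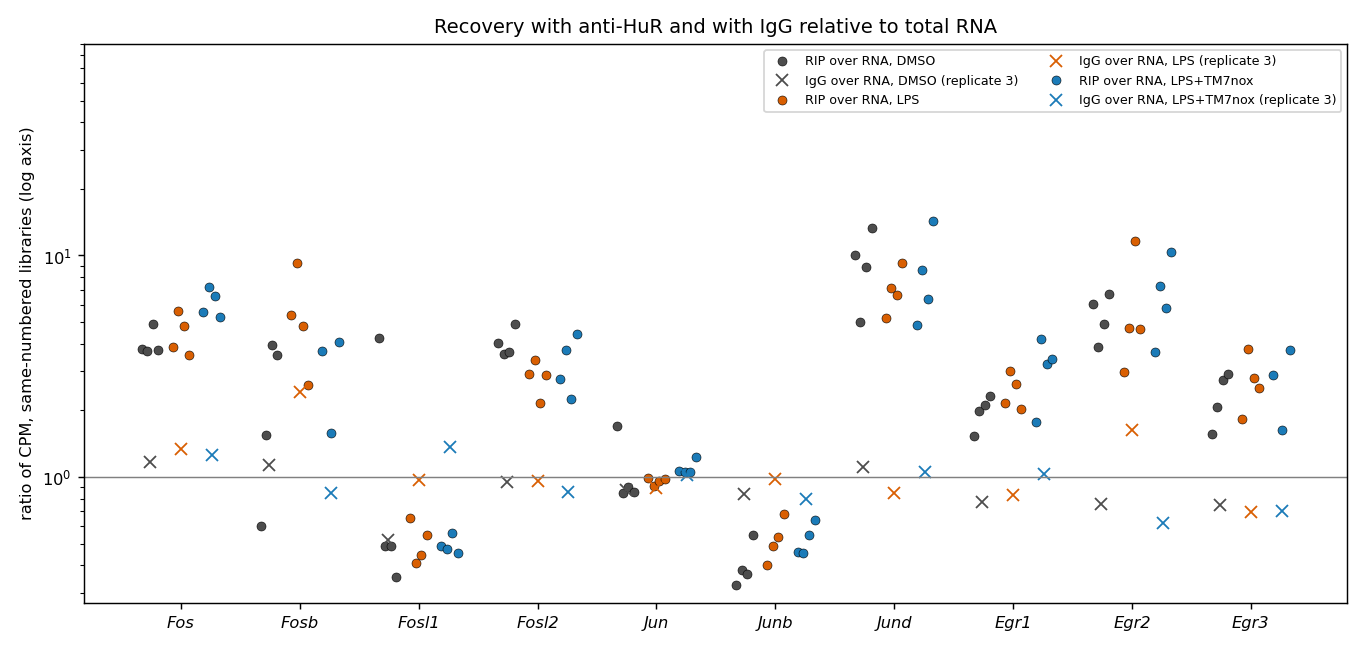
Ratio of anti-HuR RIP to total RNA level (circles) and of IgG to total RNA level (crosses) in same-numbered libraries for each gene, on a log axis, by treatment; 2 ratios with no RNA reads (Fosb and Egr3 in LPS+TM7nox replicate 1) are not drawn. Jund circles lie between 4.87 and 14.4, Jun circles between 0.848 and 1.70, Junb circles below 1, and IgG crosses mostly near 1.

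For most members the IgG libraries gave levels near those of total RNA. For Jund the IgG library held 9.22, 29.6 and 23.2 CPM in DMSO, LPS and LPS+TM7nox, and the replicate 3 RIP libraries 73.6, 232.7 and 140.3 CPM. For Junb, IgG held 49.8, 308.0 and 193.2 CPM and the same RIP libraries 21.7, 168.7 and 133.7 CPM, so that relative to the typical gene it was lower with anti-HuR. Over all treatments, 8 of 10 members were called between anti-HuR and IgG, 7 of them higher with anti-HuR, beside 68.1% of 14973 genes (33.8% higher and 34.2% lower). Egr2 (log2 3.33, SE 0.389), Jund (2.91, SE 0.553), Fos (2.43, SE 0.335), Fosl2 (1.79, SE 0.283), Egr1 (1.76, SE 0.245), Egr3 (1.71, SE 0.360) and Fosb (1.53, SE 0.447) were higher, and Junb (-0.85, SE 0.190) was lower. Jun was at 0.04 (SE 0.180, FDR 0.855). With the replicate block Fosb was no longer called (FDR 0.0689) and Fosl1 was called as lower (log2 -1.11, FDR 0.0236, from -0.80, FDR 0.0587). With replicate 3 alone Fosb was not called (FDR 0.0846), and its value was 2.16 without the IgG library of LPS. Fosl1 was also called without the IgG library of DMSO (FDR 0.00498) or RIP DMSO replicate 1 (FDR 0.0271) or 2 (FDR 0.0309), with replicate 3 alone (FDR 0.000163) and without the filter (FDR 0.0142).

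Genes that work with these factors were counted in short lists, which were chosen with earlier results of these data known. Their counts were not tested against the shares of all genes. Among 10 AP-1 partners and related leucine zipper genes, 8 were tested, and with LPS 5 rose and none fell in total RNA, beside 20.2% and 21.7% of all genes. The largest rises were those of Batf2 (log2 4.90, SE 0.32), a partner of Jun proteins in interferon responses, and Atf3 (3.66, SE 0.44), a stress-induced repressor. With TM7nox relative to LPS, 4 of the 8 were higher and none lower (7.37% and 6.4% of all genes), led by Atf3 (1.496, FDR 0.0232) and Mafg (1.47, FDR 0.000103), a small Maf protein that pairs with Nrf2. The list's median log2 fold change was 1.75 with LPS and 0.43 with TM7nox, beside -0.04 and 0.00 over all genes. Of the EGR relatives and co-repressors, Nab1 and Nab2 were tested. Nab2, which binds EGR proteins and represses their action, rose with LPS (log2 0.47, SE 0.14, FDR 0.0161) and fell with TM7nox (-1.04, SE 0.14, FDR 0.000297).

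Serum response factor and its ternary complex partners drive many immediate-early promoters. Of these 4 genes, Elk1 rose (log2 0.56, FDR 0.0147) and Elk3 fell (-1.88, FDR 0.000169) with LPS, beside 20.2% and 21.7% of all genes. Srf (-0.71, FDR 0.00499) and Elk1 (-0.53, FDR 0.0452) fell with TM7nox and none rose, beside 6.4% and 7.37% of all genes. The list's median log2 fold change was -0.13 with LPS and -0.16 with TM7nox. Of 14 other immediate-early genes tested from 17 listed, 8 rose and 2 fell with LPS (20.2% and 21.7% of all genes; list median log2 0.91), with the largest rises in Ier3 (3.44) and Arc (2.21) and falls in Klf2 (-0.99) and Klf9 (-0.83). With TM7nox 2 of them rose, Klf9 (2.27) and Maff (1.37), and 3 fell, led by Arc (-2.41) and Ier2 (-1.26), beside 7.37% and 6.4% of all genes and with a list median of 0.10. Maff is also in the list of AP-1 partners and is counted in both. Of 8 genes that textbooks give as AP-1 targets, 5 rose and 1 fell with LPS (20.2% and 21.7% of all genes; list median log2 2.87). Timp1 (8.37), an inhibitor of matrix proteases, and Mmp13 (7.80), a collagenase, rose most, and Plau (-2.07), the urokinase gene, fell. With TM7nox 3 of the 8 fell, led by Timp1 (-2.45) and Ccnd1 (-2.03), and none rose, beside 6.4% and 7.37% of all genes and with a list median of -1.13.

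The promoter windows of the members were searched for sites of factors known to act on them. The RefSeq table (GRCm38.p6) held 11 windows, from 250 bases before to 50 after a start site, for 7 of the 10 genes; Egr1, Egr3 and Fosl1 were not matched. On either strand, the CArG box of serum response factor was found in Egr2 alone, beside 1.63% of 32851 windows. The EGR site GCGNGGGCG was found in Fosl2 and Fosb, beside 5.55%. The AP-1 site TGANTCA (7.81% of windows), the cAMP response element TGACGTCA (1.79%) and an NF-kB site (0.155%) were found in none, which says only that these letters are not in these windows. The lines show, as examples of each motif that was found, the Egr2 site in chr10:67537619-67537918 (plus strand) and the Fosl2 site in chr5:32136222-32136521 (plus strand), 72 and 79 bases before the start site, with the motif in capitals and 10 bases on each side.
Egr2: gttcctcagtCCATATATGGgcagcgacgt
Fosl2: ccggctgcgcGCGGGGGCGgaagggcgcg
Egr2 and Fosl2 moved in opposite directions with LPS, as given above, and no binding was measured here.

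Members' patterns over the 12 RNA libraries are described by Pearson's r of log2 CPM, over libraries that share treatments, replicate numbers and one scaling. Among the members themselves, the highest r was between Fosl2 and Junb (0.906) and the lowest between Fos and Jun (-0.861). Fosl1 and Jund gave 0.819, Fosl1 and Junb 0.792, and Fos and Egr1 0.721. Among 8130 other protein-coding genes with a mean of at least 5 CPM, the most alike were Abi1 (0.983) and Blcap (0.980) for Fosl1, and Dusp2 (0.982) and Crybg2 (0.975) for Fosl2. For the Jun family they were Lonp1 (0.959) and Mta3 (0.954) for Jun, Wdr1 (0.986) and Carhsp1 (0.985) for Junb, and Ints8 (0.983) and Mlx (0.980) for Jund. Egr1 was followed by Fnbp1l (0.954) and Rab31 (0.901). Dusp2, a phosphatase of MAP kinases, had means of 3.03, 44.0 and 7.08 CPM in DMSO, LPS and LPS+TM7nox, beside 24.7, 96.7 and 40.3 CPM for Fosl2. Fosb, Egr2 and Egr3 were below the level set for this search.

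Several members lie over other genes. On GRCm39 (GENCODE M39), Fosl1 (chr19:5497575-5505974, plus strand) shares 1163 of its 2033 exonic bases with Ccdc85b and 241 with Gm59617, a gene not in the table, on the other strand. Ccdc85b had means of 10.0, 4.01 and 4.40 CPM in the RNA of DMSO, LPS and LPS+TM7nox, while Fosl1 had 1.41, 11.6 and 18.9 CPM. Jund (chr8:71151599-71153265, plus strand) shares 877 of 1667 exonic bases with Gm11175, which had 0 CPM in every group mean. Junb (chr8:85701113-85705359, minus strand) shares 173 of 2381 exonic bases with Prdx2, at 59.8, 92.4 and 68.1 CPM in RNA, and 145 with Gm65321, which is not in the table. Jun (chr4:94937271-94940459, minus strand) shares 528 of 3189 with Junos, at most 0.382 CPM in a group mean. Fosl2 (chr5:32292707-32315186, plus strand) shares 425 of 10397 with Gm72529, a gene not in the table. The setting of strand in counting is not given in the sources used here. Reads in these stretches could have gone to either gene or been left uncounted, which also bears on levels per kilobase and family shares. The part of this setting in the results was not tested. Fos (chr12:85520658-85524047, plus strand), Fosb (chr7:19036621-19043976, minus strand), Egr1 (chromosome 18) and Egr3 (chr14:70314350-70320063, plus strand) overlap no annotated gene, and Egr2 (chr10:67371305-67378018, plus strand) shares no exonic base with the gene on its other strand.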

How the data were processed

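The authors deposited 1 table of raw counts, whole reads per gene in 27 libraries, from a stranded SMART-Seq kit per the labels' protocols. The submitters' processing notes name FastQC 0.11.9, STAR, HTSeq, DESeq2 and GRCm39. For the annotation release and strand setting nothing is given in the sources used here. The main test was edgeR's two-sided quasi-likelihood test (version 4.0.16, R 4.3.3), after TMM and filterByExpr (minimum count 10), adjusted by Benjamini-Hochberg over all genes in the fit. Fits held the 12 RNA libraries, the 12 RIP libraries, all 24 for ratios of RIP to RNA and their changes, and 15 (RIP and IgG, treatment as covariate) for the antibody against IgG. The fits were tested on simulated data. DESeq2 1.42.0 was an alternative. Reads carry no stated molecular identifiers, so zero-read limits cover counting error only, and values on fewer than 10 reads are uncertain. All 36 pairs of replicates differed beyond counting noise (chi-square per gene 38.0 to 213.2).

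Replicate numbers come from the labels. Deviations of same-numbered libraries from their group means correlated in all treatment pairs of an assay (r at least 0.299). Over all 60 same-numbered pairs, also across assays, the median was 0.427 and 59 were over 0.1 (lowest 0.0502). The block on replicate number is therefore given where it changed a call. The named genes are the 10 members, at most 2 called genes in each direction per list and comparison, and the 2 genes most correlated with each member above 5 CPM (log2 CPM, prior count 2). Those for Fos are not reported here. The members and lists were chosen with earlier results of these data known. Promoters are from RefSeq and 3′ UTRs from the transcript sequences of GENCODE M39.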

Additional observations from a re-analysis of the deposited data

Results flagged for a closer look

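In groups of 4 libraries, 2 of 60 groups held a library whose gap to its nearest neighbour exceeded the 95% critical value of Dixon's test, where chance flags about 1 in 20. Egr2 in RNA DMSO replicate 2 was at 12.8 CPM with its nearest neighbour at 3.82 CPM, a gap of 0.853 of the range. The 2 calls of Egr2 against DMSO in total RNA were lost without this library and stood in replicates 3 and 4 alone. Fosl1 in RNA LPS replicate 2 was at 10.1 CPM with its nearest neighbour at 11.9 CPM, a gap of 0.846 of a narrow range, and no call of Fosl1 against DMSO was lost without it.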

How the results depend on the processing

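Of 120 tests of a member in a comparison, 85 kept their call or lack of one under all alternatives run, with no called value changing sign, and 35 did not in at least 1. Uncalled values changed sign in 116 alternatives, over 33 of the tests, without a call on either side. Over 2960 values from alternatives, 52 lost a call, 38 gained it and 2 reversed with a call: Fosb in total RNA with replicates 3 and 4 only, at 1.43 (LPS against DMSO) and 1.62 (LPS+TM7nox against DMSO). The 4 members called in RNA with TM7nox against LPS became 7 without the low-count filter, 1 in replicates 1 and 2 and 7 in replicates 3 and 4, and the 4 in RIP became 2 in replicates 1 and 2.

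Leaving out each library gave 6 to 7 called members with LPS against DMSO in RNA, 3 to 5 with TM7nox against LPS, 7 to 9 with LPS+TM7nox against DMSO, and 5 to 6, 3 to 4 and 5 to 7 in RIP. RIP over RNA gave 7 to 8, 8 to 9 and 8 to 9, its changes 0 in each, and anti-HuR against IgG 8 to 9. The replicate block called 7 members with LPS against DMSO in RNA, and changed no call beyond the 8 given above.

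Over all genes, calls with TM7nox against LPS in RNA went from 1704 to 3091 with the block, 168 in replicates 1 and 2 and 3489 in replicates 3 and 4. In RIP they went from 2212 to 4577, 789 and 1070. In replicates 1 and 2, calls fell from 5190 to 1668 (RNA, LPS against DMSO), 5850 to 2246 (RNA, LPS+TM7nox against DMSO) and 6090 to 3392 (RIP, LPS against DMSO). Changes of RIP over RNA with LPS went from 6 to 67 (DESeq2), 49 (no filter), 50 (block), 0 and 13 (replicates 1 and 2, and 3 and 4), and with TM7nox from 1 to 3, 5 and 2 (DESeq2, no filter, block) and 2 without mitochondrial genes and Actb. DESeq2 size factors raised the median RIP over RNA by 0.16, 0.18 and 0.22 and that over IgG by 0.13. Splits by replicate number test fewer libraries; other causes were not tested. Depth limits Fosb, and Egr3 with LPS+TM7nox.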
